A study of Mus musculus with 15 samples.

Results

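The cytochrome P450 genes of families 2, 3 and 4 were followed across mouse duodenal organoid monolayers exposed to 4 undigested dietary proteins. The members were the genes whose only symbol on their probe set, in the annotation of the Affymetrix mouse gene 1.1 ST array, began with Cyp2, Cyp3 or Cyp4 followed by a subfamily letter and a number. With the probe set of highest mean kept for each gene, 66 of 18820 genes were members, each with 1 probe set, and 2 of them were pseudogenes. Another 8 probe sets carried several symbols and were not used as members.

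Organoids were grown from the duodenum of female C57BL/6J mice aged 9 weeks and plated as confluent epithelial monolayers. Monolayers were exposed for 6 h to the soluble part of casein (CAS), soybean meal (SBM), spray-dried plasma protein (SDPP) or yellow mealworm (YMW). Each is labelled as 4% w/v, and DMEM alone was the medium control (MC). The study's methods also state the final protein as a mass per volume far below 4% w/v, so the dose is not certain. Each of the 5 groups held 3 arrays, and RNA of 3 pooled wells made 1 sample. The study describes organoids of separate mice, but the labels do not say which mouse gave which array, so p-values measure the spread between these arrays. All values below are log2 intensities or differences between them, and median array intensity ran from 21.7 to 24.1 before log2 was taken.

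P450 enzymes are haem proteins, most of them in the membrane of the endoplasmic reticulum, that take electrons from P450 reductase or cytochrome b5 and insert an oxygen atom into a lipophilic substrate. Families 2 and 3 act on drugs, plant compounds, steroids and arachidonic acid, and family 4 hydroxylates the end of fatty acid and eicosanoid chains. In the small intestine these genes are used mainly by enterocytes, the absorptive cells of the villus, where they oxidise swallowed compounds before these reach the liver. Nuclear receptors such as the pregnane X receptor (Nr1i2) and HNF4A control many of them.

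Promoter windows from RefSeq (GRCm38.p6), reaching from 250 bases before to 50 bases after a gene's start, were at hand for 51 of the 66 members. The window of Cyp3a11 is shown because this gene had the lowest fitted values against the MC, and that of Cyp2w1 because this gene alone passed the threshold in the higher direction. Motifs were searched on both strands, and capitals mark every match. The motifs were TATAAA, which is the TATA box, AGGTCA, which is an element of many nuclear receptors, its variant with the letters AGTTCA, then GTTAAT, an element of HNF1 proteins, CAAAGTCCA, a site of HNF4 proteins, and finally GCGTG, the core that the aryl hydrocarbon receptor binds. No marked matches overlap.
Cyp3a11, chr5:145879805-145880104, minus strand: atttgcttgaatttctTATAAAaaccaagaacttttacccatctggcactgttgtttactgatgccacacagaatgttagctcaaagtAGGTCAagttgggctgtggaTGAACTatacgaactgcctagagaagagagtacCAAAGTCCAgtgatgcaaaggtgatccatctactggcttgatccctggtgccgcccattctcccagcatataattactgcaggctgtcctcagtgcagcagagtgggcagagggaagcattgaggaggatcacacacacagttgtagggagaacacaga
Cyp2w1, chr5:139352366-139352665, plus strand: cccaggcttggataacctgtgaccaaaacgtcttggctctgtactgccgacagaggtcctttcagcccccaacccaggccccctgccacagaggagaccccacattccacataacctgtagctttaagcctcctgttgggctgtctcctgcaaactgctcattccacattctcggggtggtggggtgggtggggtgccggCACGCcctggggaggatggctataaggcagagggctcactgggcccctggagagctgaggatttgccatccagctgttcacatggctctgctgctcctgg
The Cyp3a11 window held 4 matches, namely the TATA box, both nuclear receptor elements (the variant on the other strand) and the HNF4 site. The Cyp2w1 window held 1 match, the aryl hydrocarbon receptor core on the other strand. GCGTG was in 19.6% of member windows and 32.5% of all windows.

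CAAAGTCCA stood in 6 of the 51 member windows (11.8%), against 0.477% of all 27025 windows and 0.417% of the 17492 windows of protein-coding genes. The stretches around the 6 matches are given 5′ to 3′ on the strand of the gene, with the match in capitals and 25 bases on either side, because they show how alike neighbouring copies are.
Cyp2c65, chr19:39060865-39060923: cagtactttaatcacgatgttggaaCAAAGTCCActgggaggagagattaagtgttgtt
Cyp2c67, chr19:39649134-39649192: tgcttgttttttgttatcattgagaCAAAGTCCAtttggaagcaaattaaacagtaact
Cyp2c68, chr19:39741145-39741203: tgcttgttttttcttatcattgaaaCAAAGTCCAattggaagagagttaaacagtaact
Cyp2c70, chr19:40187317-40187375: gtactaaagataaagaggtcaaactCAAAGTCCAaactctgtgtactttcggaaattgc
Cyp3a11, chr5:145879930-145879988: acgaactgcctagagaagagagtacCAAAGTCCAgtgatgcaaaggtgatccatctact
Cyp3a16, chr5:145469789-145469847: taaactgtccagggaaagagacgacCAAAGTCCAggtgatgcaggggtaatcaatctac
The match began between position -125 and position -64 relative to the start in each gene. Members are tandem copies, so these windows are not independent of each other. Of the 6 genes, Cyp2c65, Cyp2c68 and Cyp3a11 were above background in the monolayers, and Cyp2c67, Cyp2c70 and Cyp3a16 were below it. TATAAA was in 39.2% of member windows against 14.2% of all windows, and AGGTCA in 31.4% against 16%, while AGTTCA was in 7.84% against 14%. Among the 14 members above background that were lower with a protein source, 3 windows held CAAAGTCCA (21.4%), and among the members below background 3 of 27 did (11.1%). For AGGTCA the order was the opposite, with 21.4% of the lower members and 40.7% of those below background. A match is a description of letters and was tested against no binding data.

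Of the 66 members, 28 were above background in the monolayers. Background was set at 3.91, the 95th percentile of the mean values of 1157 olfactory and vomeronasal receptor genes, and 12880 of 18820 genes lay above it. At the 99th percentile, 4.43, 22 members remained, and 24 of the 28 were above 3.91 on all 15 arrays. The signal of a probe set depends on its probes, so levels are not compared between genes. Markers fixed for each cell type put all 15 enterocyte markers and 0 of 4 measured hepatocyte markers above background. However, 3 of 6 fibroblast, 2 of 5 leukocyte and 2 of 4 measured pancreatic acinar markers were above it too. A level just above background thus need not mean expression in the epithelium.

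In family 2, the detected members were Cyp2b10 of 5 Cyp2b genes, 5 of 13 Cyp2c genes (Cyp2c29, Cyp2c55, Cyp2c65, Cyp2c66 and Cyp2c68), 5 of 10 Cyp2d genes (Cyp2d9, Cyp2d22, Cyp2d26, Cyp2d37-ps and Cyp2d40) and 2 of 6 Cyp2j genes (Cyp2j6 and Cyp2j9). The single genes Cyp2e1, which oxidises ethanol and small solvents, Cyp2f2, known from the airway, Cyp2s1, an epithelial form, Cyp2u1, a fatty acid hydroxylase, and Cyp2w1, known from the fetal gut, were above background too. None of 3 Cyp2a genes was above it, nor were Cyp2g1, Cyp2t4 or Cyp2r1, a vitamin D hydroxylase. In family 3, Cyp3a11, Cyp3a13 and Cyp3a25 were detected of 6 Cyp3a genes. In family 4, the detected genes were Cyp4b1 and 6 of 9 Cyp4f genes (Cyp4f13, Cyp4f14, Cyp4f16, Cyp4f39, Cyp4f40 and Cyp4f41-ps), while 0 of 4 Cyp4a genes, which hydroxylate fatty acids in liver and kidney, passed the level, nor did Cyp4x1. The 38 members below background had means from 2.42 to 3.82.

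Detected Cyp2c genes lay side by side. In the order of their start sites along chromosome 19, Cyp2c55, Cyp2c65, Cyp2c66 and Cyp2c29 were the first 4 of 13 genes with a window in the cluster, and all 4 were above background. Of the other 9, Cyp2c68 was above background, 6 were members below it and Cyp2c40 and Cyp2c69 were not members. On chromosome 5, Cyp3a11 and Cyp3a25 were next to each other among genes with a window, whereas Cyp3a57, Cyp3a16 and Cyp3a44 in the same stretch were below background and Cyp3a13 lay apart at chr5:137921570-137921869.

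**Figure D1:**
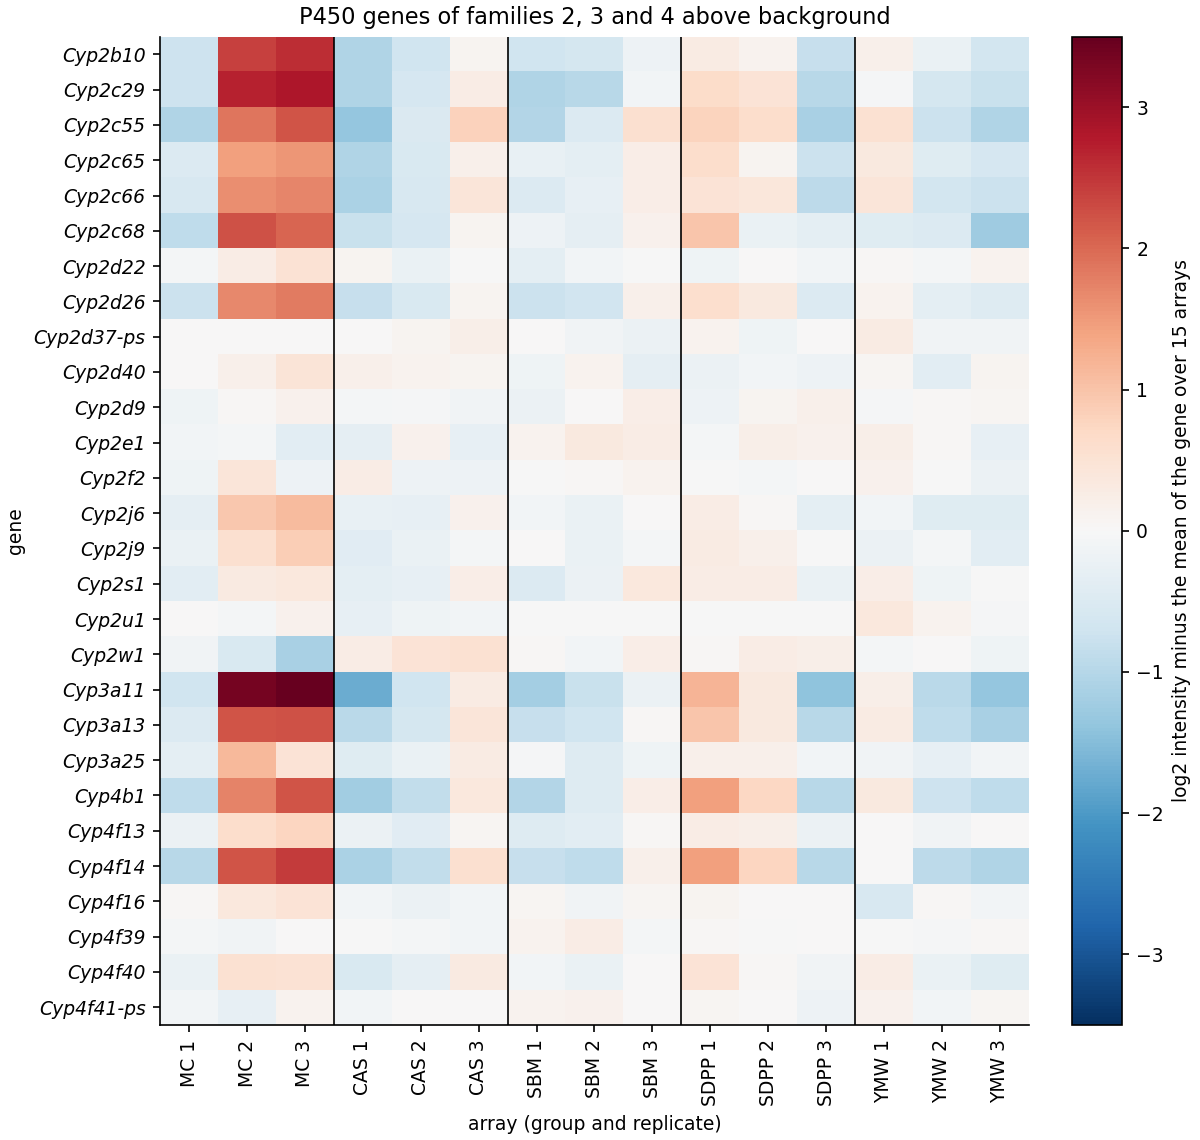
Log2 intensity of the 28 members above background (rows) on each of the 15 arrays (columns, by group and replicate), drawn as the difference from the mean of the gene over all arrays. MC 2 and MC 3 stand out in red for most Cyp2b, Cyp2c, Cyp2j, Cyp3a and Cyp4 genes, while MC 1 looks like the exposed arrays, and Cyp2w1 runs the other way.

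The array labelled MC 1 stood with the exposed arrays for the 14 detected members found lower below and for the mean of enterocyte markers, and MC 2 and MC 3 stood apart from it. Whether its label or the state of its culture differed from theirs cannot be told from the values, and each difference from the MC below is open to that doubt.

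Against the MC, members that passed the test were nearly all lower, and they included the drug-metabolising genes Cyp3a11, Cyp3a13, Cyp2b10 and Cyp2c29 and the lipid-metabolising genes Cyp2j6 and Cyp4f14. The study's threshold asks for a fold change of 1.5 or more together with a limma p below 0.05 before adjustment. With CAS, 14 members passed, 13 lower and 1 higher, which is 21.2% of members against 3.85% of all genes tested, of which 2.04% were lower and 1.82% higher. With SBM, 11 passed, 10 lower and 1 higher (16.7% against 3.5% of all genes, 2.14% lower and 1.37% higher). With SDPP, 3 passed, 2 lower and 1 higher (4.55% against 1.63%, 0.499% lower and 1.13% higher). With YMW, 12 passed, all lower (18.2% against 3.87%, 2.13% lower and 1.74% higher). The median difference over the 28 detected members was -0.55, -0.56, -0.33 and -0.55 with CAS, SBM, SDPP and YMW, whereas that over all genes above background lay between -0.01 and 0.01. The 4 comparisons share the same 3 MC arrays and are not independent of each other.

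In all, 16 members passed with at least 1 protein, 15 of them above background. Cyp2b10 and Cyp3a11 passed with all 4 proteins. Cyp2c29, Cyp2c67, Cyp2d26, Cyp2j6, Cyp2w1, Cyp3a13 and Cyp4f14 passed with 3, Cyp2c65, Cyp2c66, Cyp2c68 and Cyp2j9 with 2, and Cyp3a25, Cyp4b1 and Cyp4f13 with 1. After Benjamini-Hochberg adjustment over all genes in limma, Cyp2w1 with CAS was the member with an adjusted p under 0.05, where 0.654% of genes passed. The other 3 comparisons gave 0 members by that measure in limma. Of all genes, 0.00531%, 0% and 0.00531% passed it with SBM, SDPP and YMW. This measure also turns on the MC arrays. Without MC 1 it gave 25, 23, 17 and 22 members with CAS, SBM, SDPP and YMW, and without MC 2 or without MC 3 it gave 0 in each. The share of all genes by this measure was not taken in those fits.

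**Figure D2:**
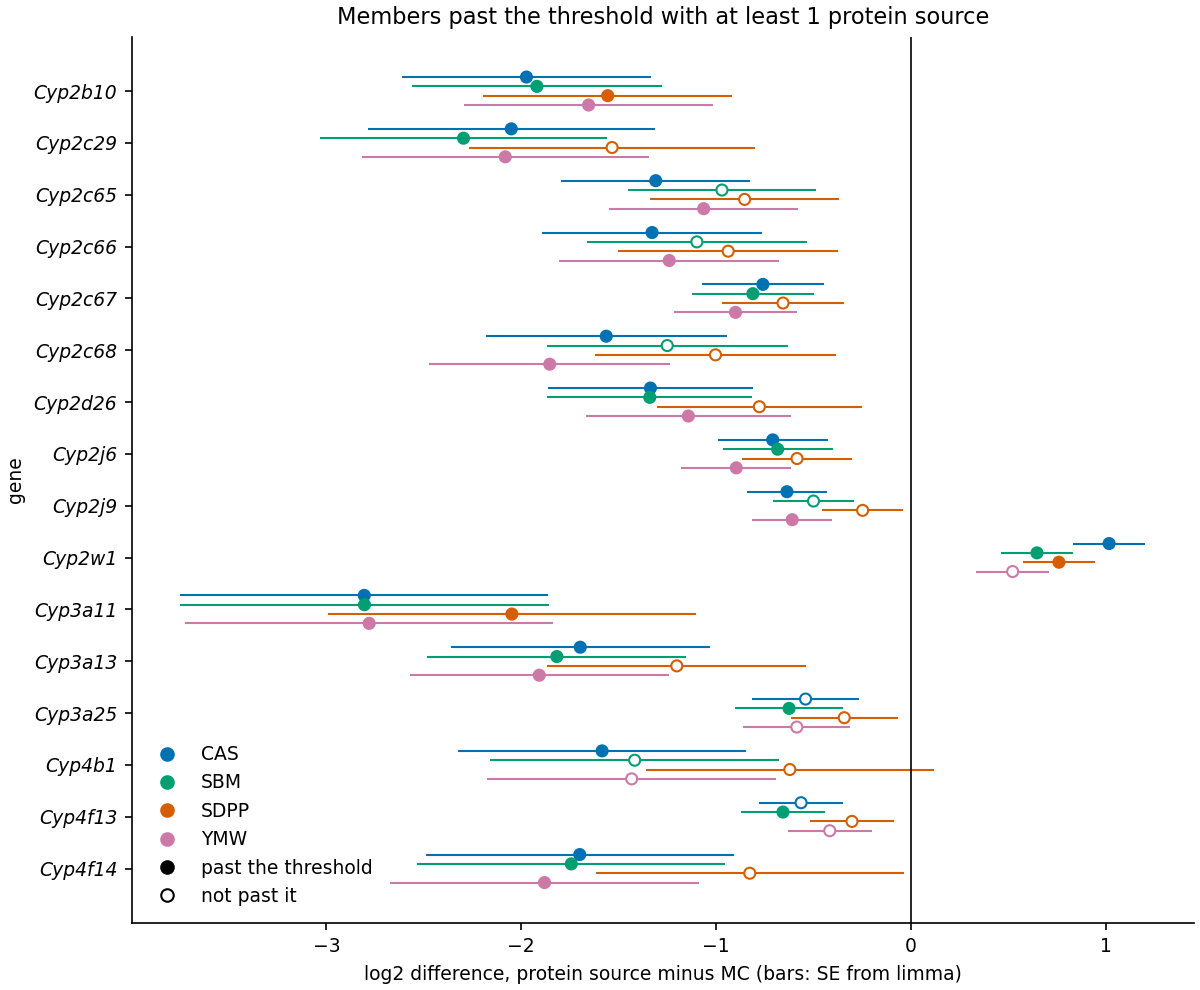
Log2 difference from the MC for the 16 members that passed the threshold with at least 1 protein, as the limma estimate with its SE. Filled points passed the threshold and open points did not, and Cyp2w1 is the gene to the right of 0 with all 4 proteins.

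These counts turn on which MC arrays are used. Without MC 1, 20, 19, 16 and 21 members passed with CAS, SBM, SDPP and YMW, where 9.08%, 9.4%, 7.33% and 9.53% of all genes passed. Without MC 2 the counts were 2, 2, 1 and 1, where 1.92%, 1.38%, 0.755% and 1.76% of all genes passed. Without MC 3 they were 2, 1, 0 and 2, where 1.26%, 0.723%, 0.452% and 1.13% passed, so that 0 to 2 of the 66 members were left. With MC 1 as the only control, whose array is then assumed to vary like those of the other groups, they were 0, 0, 1 and 0, where 0.834%, 0.611%, 0.744% and 0.494% passed. Among the exposed arrays, the CAS count was 4 without CAS 1 and 7 without CAS 2 (2.51% and 2.81% of all genes), and the SBM count 5 without SBM 1 and 7 without SBM 2 (2.49% and 2.4%). The SDPP count was 8 without SDPP 1 and 1 without SDPP 3 (2.64% and 0.776%), and the YMW count was 5 without YMW 3 (2.72%).

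The 14 detected members that were lower with a protein were picked by their difference from the MC on these same arrays. High MC arrays are thus part of that choice, and how often other genes show the same order was not counted. For each of the 14, MC 1 lay within the range of the 12 exposed arrays, and MC 2 and MC 3 lay above all 12. The median of their differences from the median of the exposed arrays was -0.16 for MC 1, 2.21 for MC 2 and 2.29 for MC 3. Detected members also spread more between replicates than other genes did. The median SD over the MC arrays was 0.54 for them and 0.16 over all genes above background, and within the 4 protein groups it was 0.23 against 0.13.

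**Figure D3:**
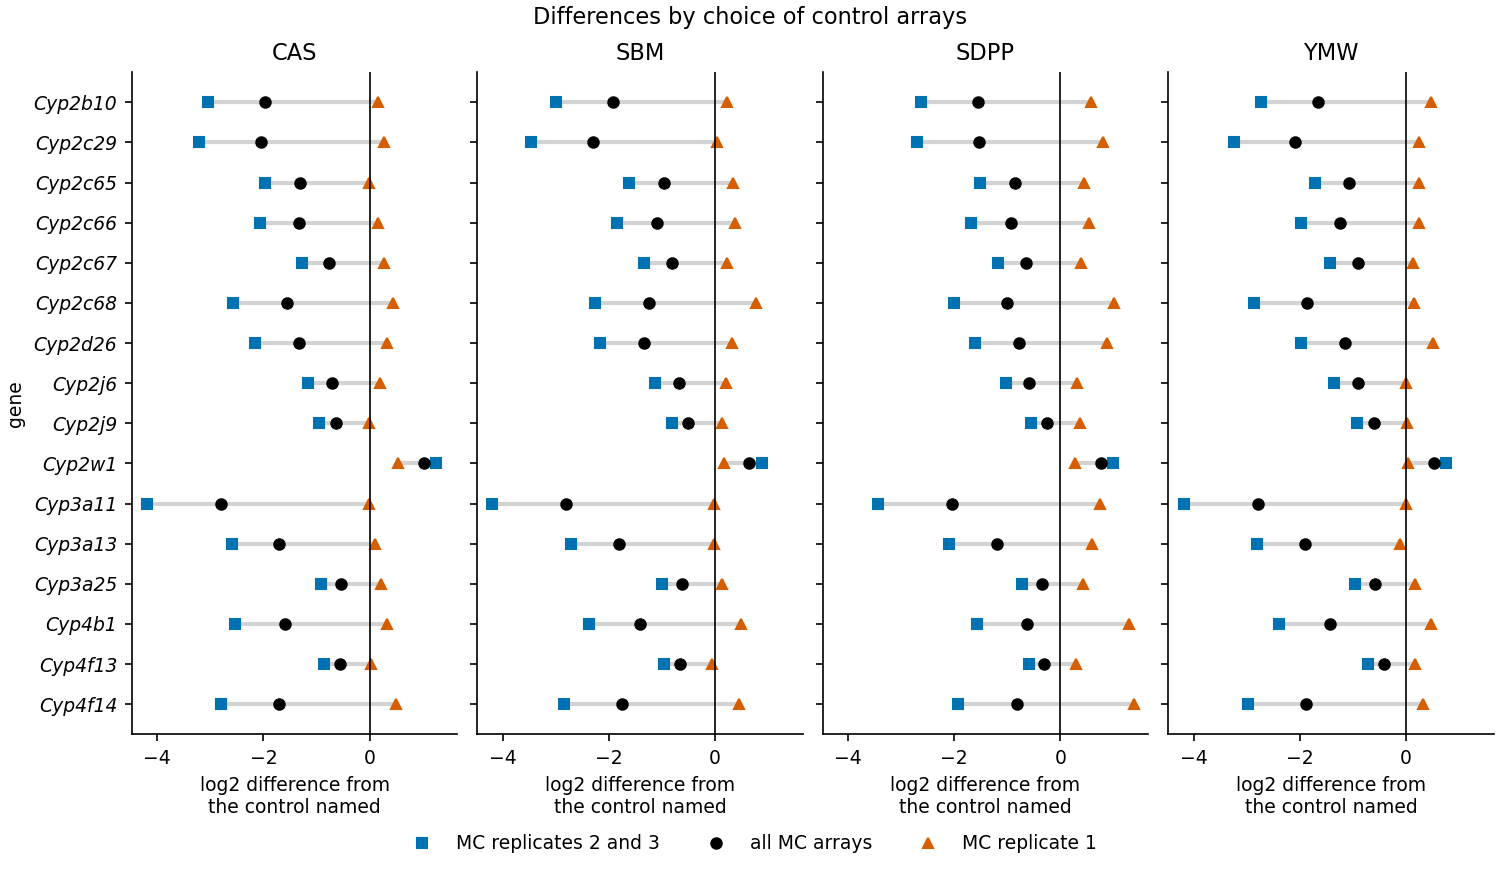
Log2 difference of each protein from the control for the 16 members that passed, with all 3 MC arrays (circles), MC 2 and MC 3 (squares) or MC 1 alone (triangles). Squares and circles lie left of 0 for the lower genes, and the triangles lie near 0 or to the right of it.

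Cyp3a11, a major mouse drug oxidase and target of the pregnane X receptor, had the lowest differences of any member. On MC 1, MC 2 and MC 3, Cyp3a11 was at 4.95, 9.02 and 9.26, while CAS arrays gave 3.91, 4.96 and 5.95, SBM arrays 4.47, 4.89 and 5.46, SDPP arrays 6.85, 6.00 and 4.24 and YMW arrays 5.87, 4.71 and 4.31. MC 1 sat amid the exposed arrays, and MC 2 and MC 3 were far above every one of them. Casein gave a fitted difference of -2.81 (6.99-fold lower), SBM -2.80, SDPP -2.05 and YMW -2.78, each with an SE of 0.95 in limma. All 4 passed the threshold, with adjusted p-values of 0.159, 0.183, 0.411 and 0.152 in the same order. Without MC 1 the difference with CAS was -4.20 (adjusted p in limma 0.000428), and from MC 1 alone it was -0.02.

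Cyp3a13, an intestinal member of the same subfamily, followed the same order of arrays. Values of Cyp3a13 were 8.84, 11.53 and 11.56 on the MC arrays 1 to 3, 8.37, 8.72 and 9.75 after CAS, 8.51, 8.62 and 9.35 after SBM, 10.30, 9.67 and 8.36 after SDPP and 9.60, 8.43 and 8.17 after YMW. The array of each protein that was highest for Cyp3a11 was highest here as well. Its differences were -1.70, -1.82, -1.20 and -1.91 with CAS, SBM, SDPP and YMW (SE 0.66), and that with SDPP did not pass. Cyp3a25, a steroid-oxidising form, lay between 3.93 and 4.68 on the exposed arrays, close to background. Cyp3a25 read 4.03, 5.50 and 4.85 on MC 1, MC 2 and MC 3, then 3.94, 4.15 and 4.68 on the CAS arrays, 4.34, 3.93 and 4.23 on the SBM arrays, 4.54, 4.54 and 4.27 on the SDPP arrays and 4.25, 4.09 and 4.29 on the YMW arrays, in replicate order. MC 2 and MC 3 were above all exposed arrays and MC 1 was within them. It passed with SBM alone, at -0.63 (SE 0.28), against -0.54, -0.34 and -0.59 with CAS, SDPP and YMW.

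Cyp2b10, the classical target of the constitutive androstane receptor, passed with every protein. On MC 1, MC 2 and MC 3, Cyp2b10 was at 7.51, 10.62 and 10.80, while CAS arrays gave 7.17, 7.53 and 8.31, SBM arrays 7.53, 7.62 and 8.04, SDPP arrays 8.52, 8.34 and 7.41 and YMW arrays 8.40, 7.98 and 7.59. MC 1 lay within the exposed arrays, and MC 2 and MC 3 stood apart above them. Differences were -1.97, -1.92, -1.56 and -1.65 with CAS, SBM, SDPP and YMW (SE 0.64), or 3.93-, 3.78-, 2.94- and 3.15-fold lower. The adjusted p-values in limma were 0.148, 0.182, 0.378 and 0.189.

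**Figure D4:**
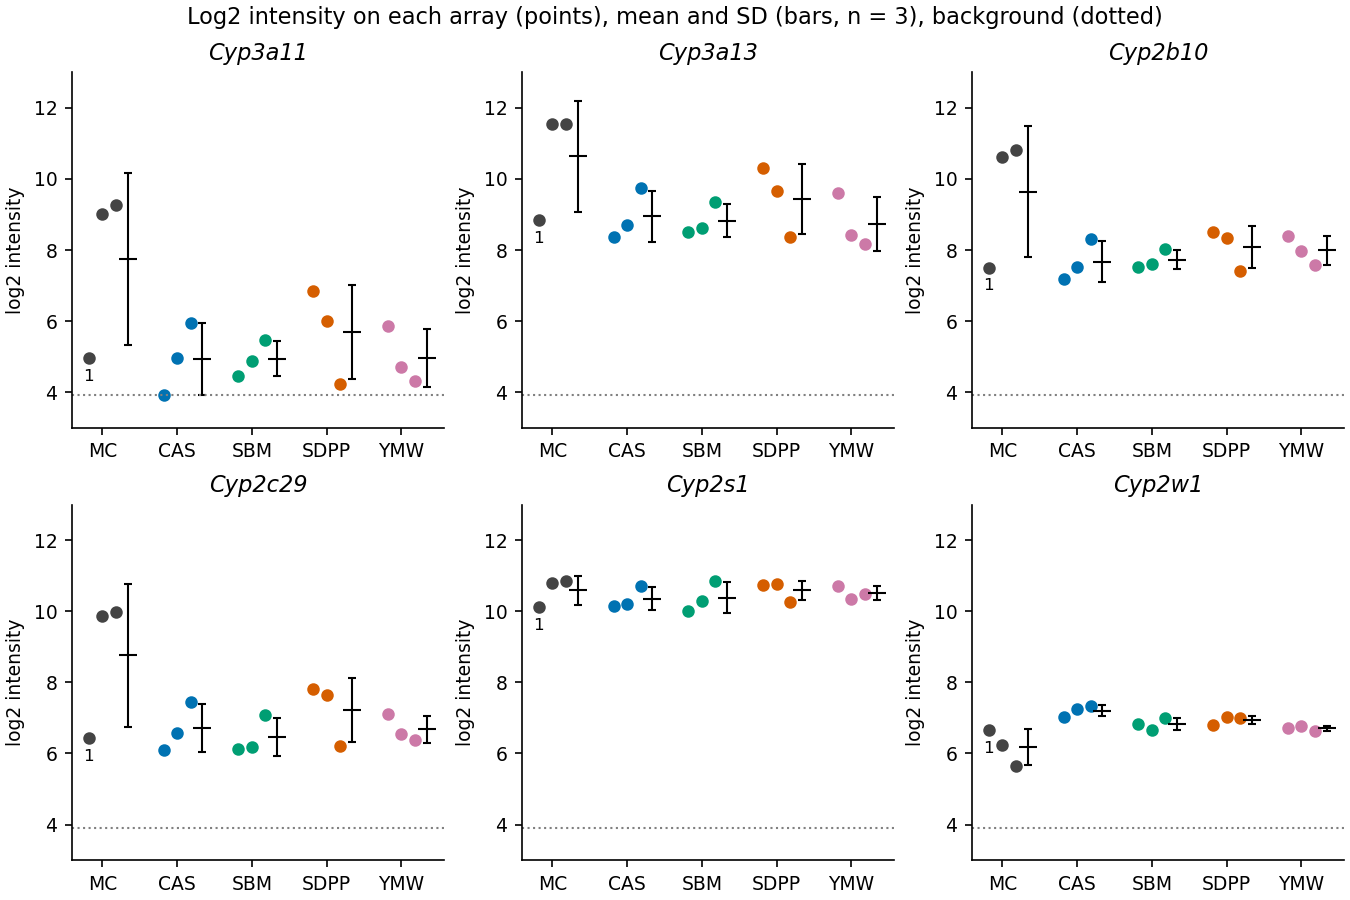
Log2 intensity of 6 members on each array (points, in replicate order), with the group mean and SD (bars, n = 3) and background as a dotted line. For Cyp3a11, Cyp3a13, Cyp2b10 and Cyp2c29 the point of MC 1 is level with the exposed arrays, Cyp2s1 stays between 10.01 and 10.85, and MC 3 is the lowest array for Cyp2w1.

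The Cyp2c genes oxidise arachidonic and linoleic acid as well as drugs. Values of Cyp2c29 were 6.43, 9.85 and 9.99 on the MC arrays 1 to 3, 6.11, 6.58 and 7.43 after CAS, 6.12, 6.19 and 7.08 after SBM, 7.82, 7.66 and 6.20 after SDPP and 7.12, 6.54 and 6.37 after YMW. Cyp2c29, which makes epoxides of arachidonic acid, passed at -2.05, -2.30 and -2.08 with CAS, SBM and YMW (SE 0.74), and the value with SDPP, -1.53, did not pass. Cyp2c65 read 9.81, 11.72 and 11.81 on MC 1, MC 2 and MC 3, then 9.21, 9.73 and 10.46 on the CAS arrays, 10.01, 9.92 and 10.50 on the SBM arrays, 10.89, 10.37 and 9.52 on the SDPP arrays and 10.61, 9.86 and 9.68 on the YMW arrays, in replicate order. On MC 1, MC 2 and MC 3, Cyp2c66 was at 10.03, 12.21 and 12.29, while CAS arrays gave 9.49, 10.04 and 11.02, SBM arrays 10.11, 10.30 and 10.83, SDPP arrays 11.06, 10.98 and 9.69 and YMW arrays 11.02, 9.96 and 9.84. In these neighbouring genes MC 1 again lay inside the exposed range. Both passed with CAS (-1.31 and -1.33) and YMW (-1.06 and -1.24), with SEs of 0.48 and 0.56. Under SBM they stood at -0.97 and -1.10, and with SDPP at -0.85 and -0.94, without passing.

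Values of Cyp2c68 were 3.22, 6.33 and 6.15 on the MC arrays 1 to 3, 3.32, 3.50 and 4.19 after CAS, 3.91, 3.79 and 4.24 after SBM, 5.07, 3.87 and 3.75 after SDPP and 3.67, 3.61 and 2.86 after YMW. MC 2 and MC 3 were again the 2 highest arrays, while MC 1 and 9 of the 12 exposed arrays were below background, so the gene counts as detected through MC 2 and MC 3. Cyp2c68 passed with CAS (-1.56) and YMW (-1.85, SE 0.62), against -1.25 with SBM and -1.003 with SDPP. All 3 YMW arrays were below background, and with background in place of lower YMW values the YMW mean was 2.50-fold lower than the MC mean. The MC mean was left as read, with MC 1 below background, so this is not a strict lower bound. With CAS, where 1 of 3 arrays was above background, the same measure gave 2.34-fold. From MC 1 alone its fitted SDPP difference of 1.01 passed, the only one of a member to do so, but MC 1, SDPP 2 and SDPP 3 were below background, and with background in place of MC 1 the SDPP mean was 1.25-fold higher. Cyp2c67 had a mean below background and read 3.35, 5.22 and 4.60 on MC 1, MC 2 and MC 3 and between 3.38 and 3.97 on the exposed arrays. It passed with CAS (-0.76), SBM (-0.81) and YMW (-0.90), but every array of these 3 groups was below background. The measure used for Cyp2c68 gave 1.39-fold lower in each, under the fold limit, again with MC 1 below background and left as read. With background in place of MC 1 as well the fold would be larger, and it was not computed. Cyp2c55, a hydroxylase of arachidonic acid, read 7.17, 10.07 and 10.41 on the MC arrays and 6.85 to 9.00 on the exposed arrays, with a median of 7.72. Its differences of -1.36, -1.32, -0.93 and -1.44 (SE 0.80) did not pass in any comparison.

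Probe sets shared between copies showed the same arrays apart. The set annotated to Cyp2c69, Cyp2c67, Cyp2c68 and Cyp2c40 read 4.56, 6.82 and 7.02 on the MC arrays and 4.07 to 5.85 on the exposed arrays. The higher of the 2 sets annotated to Cyp3a41b, Cyp3a44, Cyp3a41a and Cyp3a11 read 3.73, 6.63 and 6.42, against 3.53 to 4.86. How far probes of the member sets also bind such copies was not tested.

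Cyp2d26 was the 1 Cyp2d gene to pass. Cyp2d26 read 7.69, 10.13 and 10.24 on MC 1, MC 2 and MC 3, then 7.64, 7.90 and 8.52 on the CAS arrays, 7.68, 7.77 and 8.60 on the SBM arrays, 9.01, 8.77 and 7.95 on the SDPP arrays and 8.57, 8.09 and 7.98 on the YMW arrays, in replicate order. MC 1 lay near the lowest exposed array, and MC 2 and MC 3 lay above all of them. It passed at -1.34 for CAS, -1.34 for SBM and -1.14 for YMW (SE 0.53), and the -0.78 for SDPP did not pass. Its detected relatives moved less, and none reached the fold change of 1.5. Cyp2d22 had group means of 4.79 ± 0.29 (SD, n = 3) in the MC, 4.50 ± 0.17 under CAS, 4.41 ± 0.17 under SBM, 4.47 ± 0.07 under SDPP and 4.57 ± 0.10 under YMW. Those of Cyp2d40 were 5.54 ± 0.22 (SD, n = 3) in the MC, 5.46 ± 0.04 under CAS, 5.21 ± 0.23 under SBM, 5.17 ± 0.05 under SDPP and 5.26 ± 0.26 under YMW. The means of Cyp2d9 ran from 3.88 to 3.99 and those of the pseudogene Cyp2d37-ps from 4.50 to 4.72.

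The Cyp2j genes oxidise arachidonic acid to epoxides and hydroxy acids. On MC 1, MC 2 and MC 3, Cyp2j6 was at 8.58, 9.84 and 10.01, while CAS arrays gave 8.65, 8.60 and 9.05, SBM arrays 8.82, 8.66 and 8.90, SDPP arrays 9.17, 8.94 and 8.57 and YMW arrays 8.80, 8.47 and 8.47. The MC 1 value fell within the exposed arrays. Cyp2j6 passed with CAS (-0.71), SBM (-0.68) and YMW (-0.90, SE 0.28), and its SDPP difference, -0.58, did not pass. Values of Cyp2j9 were 5.44, 6.23 and 6.52 on the MC arrays 1 to 3, 5.26, 5.42 and 5.60 after CAS, 5.67, 5.42 and 5.60 after SBM, 5.94, 5.84 and 5.66 after SDPP and 5.46, 5.60 and 5.29 after YMW. The range of the exposed arrays was narrower here. Cyp2j9 passed with CAS (-0.64) and YMW (-0.61, SE 0.21), against -0.50 with SBM and -0.25 with SDPP.

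Cyp4f14, which inactivates leukotrienes by hydroxylating the chain end, was the family 4 gene that passed most often. Cyp4f14 read 6.43, 9.61 and 9.86 on MC 1, MC 2 and MC 3, then 6.30, 6.54 and 7.96 on the CAS arrays, 6.59, 6.51 and 7.57 on the SBM arrays, 8.82, 8.17 and 6.42 on the SDPP arrays and 7.40, 6.50 and 6.36 on the YMW arrays, in replicate order. SDPP 1 came nearest to MC 2, and MC 1 was among the lowest arrays. The difference was -1.70, -1.74 and -1.88 with CAS, SBM and YMW (SE 0.79), and -0.83 with SDPP, which did not pass. On MC 1, MC 2 and MC 3, Cyp4b1 was at 5.35, 7.97 and 8.45, while CAS arrays gave 5.03, 5.38 and 6.61, SBM arrays 5.23, 5.79 and 6.49, SDPP arrays 7.67, 6.96 and 5.28 and YMW arrays 6.59, 5.51 and 5.37. Cyp4b1, a fatty acid hydroxylase, showed the same high SDPP 1 array. It passed with CAS at -1.58 (SE 0.74), where p was 0.0499 in limma, and the values with SBM, SDPP and YMW were -1.42, -0.62 and -1.43.

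Values of Cyp4f13 were 7.35, 8.17 and 8.32 on the MC arrays 1 to 3, 7.35, 7.17 and 7.63 after CAS, 7.10, 7.17 and 7.59 after SBM, 7.82, 7.75 and 7.36 after SDPP and 7.57, 7.44 and 7.58 after YMW. Cyp4f13 passed with SBM at -0.66 (SE 0.22). Its difference with CAS, -0.56, had a p of 0.0206 in limma but a fold change of 1.48. Cyp4f16 had group means of 7.50 ± 0.23 (SD, n = 3) in the MC, 7.05 ± 0.06 under CAS, 7.19 ± 0.12 under SBM, 7.22 ± 0.05 under SDPP and 6.98 ± 0.31 under YMW, and its differences of -0.44 with CAS and -0.52 with YMW stayed under the fold limit. Those of Cyp4f40 were 5.76 ± 0.43 (SD, n = 3) in the MC, 5.31 ± 0.44 under CAS, 5.39 ± 0.12 under SBM, 5.61 ± 0.30 under SDPP and 5.35 ± 0.35 under YMW. Cyp4f39, which in skin hydroxylates very long fatty acids, had means between 3.91 and 4.08, and the pseudogene Cyp4f41-ps between 3.87 and 4.05, both at the edge of background.

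Cyp2w1 was the only member to pass in the higher direction. Cyp2w1 read 6.66, 6.25 and 5.65 on MC 1, MC 2 and MC 3, then 7.04, 7.26 and 7.32 on the CAS arrays, 6.83, 6.67 and 7.001 on the SBM arrays, 6.81, 7.03 and 6.99 on the SDPP arrays and 6.70, 6.79 and 6.64 on the YMW arrays, in replicate order. Every CAS, SBM and SDPP array was above every MC array, with 6.67 on SBM 2 next to 6.66 on MC 1, while YMW 3 was just below MC 1. No other member that passed had groups without overlap. How many of all genes passed without overlap was not counted, so whether this separation is unusual is not known. The difference was 1.02 with CAS (2.02-fold higher, adjusted p in limma 0.0345), 0.65 with SBM and 0.76 with SDPP, with an SE of 0.19. With YMW it was 0.52, under the fold limit. From MC 1 alone the values were 0.54, 0.17, 0.28 and 0.05 with CAS, SBM, SDPP and YMW, none past the threshold. Without MC 3, the array with the lowest value, they were 0.75 with CAS, 0.38 with SBM and 0.49 with SDPP, of which that with CAS passed.

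The remaining detected genes gave no difference past the threshold. Cyp2s1 had group means of 10.59 ± 0.41 (SD, n = 3) in the MC, 10.35 ± 0.31 under CAS, 10.38 ± 0.43 under SBM, 10.58 ± 0.28 under SDPP and 10.51 ± 0.19 under YMW. The interval of its CAS difference, -0.23 with a 95% interval from -0.73 to 0.27, leaves room for a small change in either direction. Cyp2e1 had means of 4.95 ± 0.18 (SD, n = 3) in the MC, 4.97 ± 0.26 under CAS, 5.37 ± 0.10 under SBM, 5.22 ± 0.15 under SDPP and 5.12 ± 0.25 under YMW, and its SBM difference of 0.42 had a p of 0.0144 in limma but fell short of the fold limit. Cyp2u1 means ran from 4.42 to 4.75 and Cyp2f2 means from 4.09 to 4.17.

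Set against each other, the proteins gave no member past the threshold. In limma, 0 members passed when CAS, SBM, SDPP or YMW was compared with the mean of the other 3 proteins. Of all genes, 0.159%, 0.0266%, 0.0159% and 0.0691% passed in these comparisons, which hold no MC array. Cyp2w1 was 0.37 higher with CAS than with the others (95% interval 0.05 to 0.70), under the fold limit. With SDPP the detected members lay higher than with the other proteins by a median of 0.24, against 0.01 over all genes above background. The intervals were wide, as for Cyp4f14 at 0.95 (-0.43 to 2.33) and Cyp3a11 at 0.75 (-0.90 to 2.40). Without SDPP 3, 2 members passed in that comparison, and without MC 1, which enters it through the shared spread, 1 did. The share of all genes under these fits was not taken, so these counts have no rate to be set against.

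Arrays within a protein group were ordered alike across the 14 lower members. CAS 3 was the highest CAS array for 14 of 14, SBM 3 the highest SBM array for 12, SDPP 1 the highest SDPP array for 13 and YMW 1 the highest YMW array for 11. SDPP 3 was the lowest SDPP array for 14 and MC 1 the lowest MC array for 14. The mean over these 14 members was 6.83, 9.19 and 9.29 on MC 1, MC 2 and MC 3 and ran from 6.55 on CAS 1 to 8.11 on SDPP 1 among exposed arrays.

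Enterocyte markers moved with them as a mean, though not each marker did. Their median difference from the MC was -1.06, -1.04, -0.56 and -0.99 with CAS, SBM, SDPP and YMW. Anpep, a marker on the list, stood at 0.13, 0.0046, 0.57 and 0.0044 in the same order. The mean over all 15 markers was 8.98, 10.85 and 10.89 on MC 1, MC 2 and MC 3, and it ran from 8.75 on SBM 1 to 10.43 on SDPP 1 among the exposed arrays, with 9.95 on CAS 3, 9.74 on SBM 3 and 9.83 on YMW 1. Of the 15, 3 passed the threshold under CAS, 6 under SBM, 1 under SDPP and 5 under YMW, all lower. Among all genes, 2.04%, 2.14%, 0.499% and 2.13% passed as lower in the same order. The 8 crypt base stem cell markers had means of 9.27, 8.58 and 8.05 on the MC arrays and 8.97 to 9.40 on the exposed arrays. For CAS 3 of these passed and for each other protein 2 did, all higher. The shares of all genes past it as higher were 1.82%, 1.37%, 1.13% and 1.74% with CAS, SBM, SDPP and YMW. Of 6 measured goblet cell markers, Clca1 and Zg16 were the ones to pass, with 2 lower under CAS, SBM and YMW and 1 under SDPP, and the mean over the 6 was 9.98, 10.20 and 10.39 on the MC arrays against 9.85 to 10.09 on the exposed arrays. The mean over 6 Paneth cell markers was 10.12, 9.62 and 9.57 on the MC arrays against 9.87 to 10.14, and Mmp7 passed as higher with CAS. Enteroendocrine markers, 8 in all, had means of 6.45, 6.52 and 6.64 against 6.32 to 7.08, with Tac1 higher past the threshold with all 4 proteins, Gcg higher with SDPP and Sct lower with YMW. In RNA of whole monolayers, fewer enterocytes and less P450 RNA in each enterocyte cannot be told apart, and the part of the cell makeup in these differences was not tested.

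**Figure D5:**
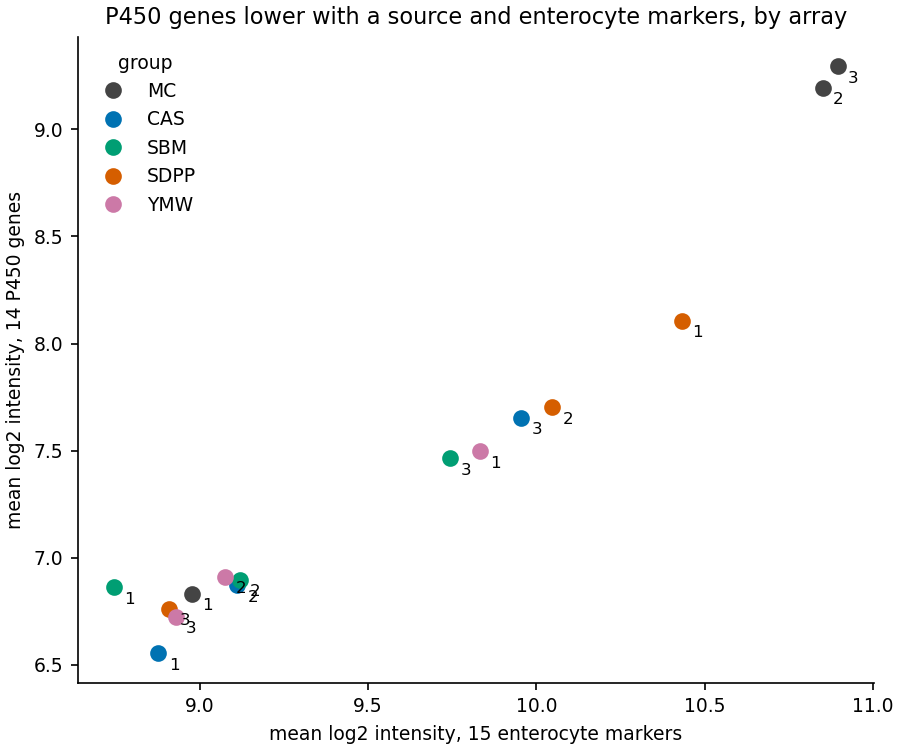
Mean log2 intensity of the 14 detected members that were lower with a protein (y axis) against that of 15 enterocyte markers (x axis), with 1 point for each array and its replicate number beside it. MC 2 and MC 3 lie at the upper right and MC 1 lies with the lower exposed arrays, and SDPP 1, SDPP 2, CAS 3, YMW 1 and SBM 3 lie in between.

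The partners of P450 enzymes were taken from a list of electron donors and haem enzymes, 14 of whose 17 genes were measured, all above background. P450 reductase (Por) was not among the genes measured. Lower genes past the threshold numbered 3 under CAS, 2 under SBM, 0 under SDPP and 3 under YMW, and 1 was higher with YMW. Among all genes, 2.04%, 2.14%, 0.499% and 2.13% passed as lower in the same order, and 1.74% as higher with YMW. Cyb5b, a cytochrome b5 of the mitochondrial outer membrane, had a difference of -0.76 with CAS (adjusted p in limma 0.0435) and -0.85 with YMW. Cyb5a, the cytochrome b5 that feeds electrons to P450 enzymes, was at -0.72, -0.59 and -0.71 with CAS, SBM and YMW. Alas1, the first enzyme of haem synthesis, was at -0.68, -0.75 and -0.75 with the same proteins. MC 1 was within the exposed range for both, as their values on MC 1, MC 2 and MC 3 were 8.99, 10.03 and 10.23 for Cyb5a and 9.66, 10.98 and 11.18 for Alas1. Cyb5r1, a cytochrome b5 reductase, was higher with YMW by 0.60. Cyb5r3, another such reductase, stayed under the fold limit at -0.50 with CAS, and Cpox, a haem enzyme, had means of 9.41 in the MC and 9.32 with CAS.

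Of 25 listed regulators of P450 genes, 21 were measured and 19 were above background. Lower regulators past the threshold numbered 3 for CAS, 1 each for SBM and SDPP and 2 for YMW, and 0 were higher. Among all genes, 2.04%, 2.14%, 0.499% and 2.13% passed as lower with CAS, SBM, SDPP and YMW. Hnf4g, an enterocyte form of HNF4, passed with all 4 at -1.23, -0.74, -0.70 and -0.93 (SE 0.32), with 8.55, 9.65 and 9.76 on MC 1, MC 2 and MC 3 and 7.65 to 9.01 on the exposed arrays. Nr1h4, the bile acid receptor, passed with CAS at -1.11. Ppara, the fatty acid receptor that drives Cyp4a genes in liver, passed with CAS and YMW at -0.78 and -0.76. Hnf4a, Vdr, Foxa1 and Pparg, the listed regulators with the highest means, did not pass. Hnf4a stood at -0.17 and Vdr at -0.54 with CAS. Nr1i2, the pregnane X receptor, passed with no protein and stood at -0.47, -0.35 and -0.36 with CAS, SBM and YMW. The constitutive androstane receptor gene, Nr1i3, was not among the genes measured.

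Epoxide hydrolases open the epoxides that P450 enzymes make. All 4 listed genes were measured, and Ephx3 and Ephx4 were below background. Ephx1, the microsomal form, passed with CAS (-0.73) and SDPP (-0.71), with 7.71, 8.40 and 8.57 on the MC arrays and 7.23 to 7.88 on the exposed arrays. Ephx2, the soluble form, passed with CAS (-1.12), SBM (-1.11) and YMW (-1.11, SE 0.51), with MC 1 at 6.13 between exposed arrays from 5.54 to 7.22.

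Outside families 2, 3 and 4, 21 other P450 genes were measured and 11 were above background. Against the MC, 1 of them passed under CAS, 3 under SBM, 2 under SDPP and 1 under YMW, all higher, namely Cyp1a1, Cyp1b1 and Cyp39a1 in part or in all. The shares of all genes past the threshold were 3.85%, 3.5%, 1.63% and 3.87% in the same order, so 1 of 21 is close to the general rate with CAS and YMW. These 3 names were read off after their values were known.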

How the data were processed

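RNA of 15 samples in 5 groups was hybridised to Affymetrix mouse gene 1.1 ST arrays. The deposited values are intensities on a linear scale that the authors made by RMA, which the submitters' processing notes name. RMA subtracts background, brings all arrays to the same quantiles and sums up the probes of a set. Its version is not given in the sources used here. Log2 was taken before any test, although the design had been written for values already on that scale. Of 35556 probe sets, 21218 had 1 gene symbol, and the set of highest mean was kept for each of 18820 genes. Precision depends on the number of arrays, since intensities carry no depth.

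The 5 group means were fitted to all 15 arrays with limma 3.58.1 in R 4.3.3, with moderated variances whose prior follows intensity, as the study's methods state. Each protein was set against the MC, and against the other 3 proteins by their mean. A gene passed when its fold change was 1.5 or more and its p before adjustment was below 0.05, and Benjamini-Hochberg adjustment ran over all genes. The scripts were tested on simulated data. The text names every member above background or past the threshold, and from each list of partner genes those past the threshold and up to 4 with the highest means. Nr1i2, Nr1i3 and Por are named beside these. The members and lists were chosen with earlier results of these data known. Alternatives were 1 prior variance for all genes, a replicate block, genes above background, median centring, a second quantile normalization, all probe sets, array weights, only the groups compared, each array left out in turn, and MC 1 as the only control. Other assays of the study are not analysed here.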

Additional observations from a re-analysis of the deposited data

How the results depend on the processing

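Of 28 members above background, 22 were above the stricter level and 24 on all 15 arrays. Counts of members past the threshold with CAS, SBM, SDPP and YMW against the MC, 14, 11, 3 and 12, were 3, 6, 1 and 5 with only the groups compared in the fit, and 20, 20, 15 and 19 with array weights. With array weights 2 members passed for SDPP against the other proteins. Shares of all genes were not taken for these fits, so a rise or fall in members may be one in all genes. Leaving out 1 array at a time gave 2 to 20 members with CAS, 1 to 19 with SBM, 0 to 16 with SDPP and 1 to 21 with YMW. The shares of all genes ran from 1.26% to 9.08%, 0.723% to 9.4%, 0.452% to 7.33% and 1.13% to 9.53%. For SDPP against the other proteins the counts were 0 to 2, with no share of all genes taken. With MC 1 as the only control the counts were 0, 0, 1 and 0. Under that control 43 of 61 differences of named genes changed sign. With CAS, the difference was 0.27 for Alas1, 0.040 for Cyb5a, 0.16 for Cyp2b10, 0.28 for Cyp2c29, 0.15 for Cyp2c66, 0.28 for Cyp2c67, 0.45 for Cyp2c68, 0.32 for Cyp2d26, 0.19 for Cyp2j6, 0.10 for Cyp3a13, 0.32 for Cyp4b1, 0.50 for Cyp4f14, 0.18 for Ephx2 and 0.061 for Ppara. With SBM, the difference was 0.20 for Alas1, 0.17 for Cyb5a, 0.22 for Cyp2b10, 0.032 for Cyp2c29, 0.23 for Cyp2c67, 0.32 for Cyp2d26, 0.22 for Cyp2j6, 0.14 for Cyp3a25, 0.46 for Cyp4f14, 0.18 for Ephx2 and 0.028 for Hnf4g. With SDPP, the difference was 0.58 for Cyp2b10, 0.74 for Cyp3a11 and 0.069 for Hnf4g. With YMW, the difference was 0.20 for Alas1, 0.044 for Cyb5a, 0.48 for Cyp2b10, 0.25 for Cyp2c29, 0.24 for Cyp2c65, 0.24 for Cyp2c66, 0.14 for Cyp2c67, 0.16 for Cyp2c68, 0.52 for Cyp2d26, 0.0030 for Cyp2j6, 0.014 for Cyp2j9, 0.010 for Cyp3a11, 0.32 for Cyp4f14, 0.19 for Ephx2 and 0.081 for Ppara. None of these 43 passed the threshold, and the cause was not tested. None of the 61 changed sign under any other alternative that was run, and differences short of the threshold are not counted. The fits with 1 prior variance, median centring, a second quantile normalization, all probe sets or genes above background kept every count within 1.5 times the reported one.

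Whether the replicate numbers pair the samples by mouse is not known, as the labels do not say. Arrays with the same number did not deviate more alike than others. That cannot decide the question, because other differences between arrays, such as those in enterocyte markers, enter the same deviations. Over 30 same-numbered pairs of arrays, deviations from the group means had a median correlation of -0.16, against 0.10 for differently numbered pairs, and 2 of 15 arrays were most like an array of their own number. Blocking on the replicate number, 12, 10, 2 and 9 members passed with CAS, SBM, SDPP and YMW and 0 in each comparison with the other proteins. The share of all genes in that fit was not taken.

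Groups of 3 arrays limit what can be seen, and in members near background, such as Cyp2c67, Cyp2c68, Cyp2d9, Cyp4f39 and Cyp4f41-ps, the size of a lower level is limited by background. Near-identical copies can share probes. The platform table named 12457 probe sets with no gene here.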
